A study of Homo sapiens with 21 samples.

Results

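Expression of 50 lysosomal genes was described in the established human lung fibroblast line IMR90 across proliferation, radiation-induced senescence and knockdown of D-type cyclin kinase genes. The genes were chosen by name for their lysosomal roles: 12 proteases, 13 glycosidases, 4 sulfatases, 8 lipid-handling hydrolases and cofactors, 7 membrane proteins, 4 subunits of the proton pump and 2 transcription factors. These genes, and the other gene and marker lists used below, were chosen with earlier results of these data known. All 50 were found by symbol among the 16383 genes of the deposited table, and 48 of them had a normalised read count of at least 10 in at least 3 of the 21 libraries, which was the condition for a test. The other 2 were the protease gene CTSO and the sialidase gene NEU1, which were listed at 0 in 19 libraries each and at 1 read in the remaining 2.

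RNA was sequenced from 7 groups of 3 libraries. Proliferating cells received no treatment, and they and the 2 non-targeting groups are labelled wild type. The other 6 groups were made senescent by ionizing radiation. They then received siRNA at 5 nM, 4 and 7 days post-IR, and were collected at day 10. Controls were 2 non-targeting reagents, #3 (called NT3) and #4 (NT4). Knockdown groups had siRNA to CCND1 (cyclin D1), to its partner kinases CDK4 or CDK6 singly, or to both kinases at once (dual knockdown). Since proliferating cells were neither irradiated nor transfected per the labels, the 2 treatments cannot be told apart in any comparison with them. Effects of an siRNA reagent beyond its target cannot be told apart from those of losing the target. The series' design text numbers the 2 controls 1 and 2, while the sample titles used here number them 3 and 4. Nothing in the labels says that the replicates were separate cultures, so p-values measure the spread between these libraries, which may be technical.

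Lysosomes are acidic organelles in which hydrolases break down proteins, sugar chains, sulfated glycans and lipids delivered by endocytosis and autophagy. A proton-pumping ATPase keeps the lumen acidic, and heavily glycosylated membrane proteins such as LAMP1 and LAMP2 line the limiting membrane. TFEB and TFE3 are transcription factors that bind an E-box sequence, called the CLEAR element, near the starts of many lysosomal genes. Senescent cells are known for an enlarged lysosomal compartment, and the lysosomal beta-galactosidase encoded by GLB1 underlies the senescence-associated beta-galactosidase stain.

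Because TFEB and TFE3 were among the genes described, promoters were searched for the E-box word CACGTG and for the longer word TCACGTGA, which contains it. Both words read the same on either strand. The window ran from 250 bases before to 50 bases after each RefSeq gene start (GRCh38.p14), and 34 of the 50 genes had an entry. CACGTG was present in 10 of the 34 (29.4%), against 7.43% of all 27305 promoters and 10.0% of the 9346 promoters of tested genes. TCACGTGA was present in 6 of the 34 (17.6%), namely LAMP1, MCOLN1, GAA, ATP6V0D1, CTSA and CLN3, against 1.04% and 1.96%. A match describes these letters only and is not evidence of binding. CLN3, where the longer word runs across the gene start, is not shown. It did not rise in the senescent controls (below), unlike the other 5. The 5 stretches are shown because they hold the longer word in genes whose RNA values are given below, with CACGTG or TCACGTGA in capitals and bases reading towards the gene. They lie at chr13:113297039-113297236 (plus strand), chr19:7522524-7522623 (plus), chr17:80101471-80101532 (plus), chr16:67481182-67481277 (minus) and chr20:45891299-45891326 (plus), in the order shown.
LAMP1: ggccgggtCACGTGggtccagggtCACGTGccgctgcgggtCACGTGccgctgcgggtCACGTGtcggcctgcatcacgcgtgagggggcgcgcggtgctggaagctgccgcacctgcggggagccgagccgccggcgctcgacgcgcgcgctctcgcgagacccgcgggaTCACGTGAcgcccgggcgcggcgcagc
MCOLN1: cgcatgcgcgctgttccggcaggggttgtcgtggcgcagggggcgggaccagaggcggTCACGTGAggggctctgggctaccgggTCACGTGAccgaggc
GAA: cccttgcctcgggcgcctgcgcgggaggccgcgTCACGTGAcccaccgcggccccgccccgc
ATP6V0D1: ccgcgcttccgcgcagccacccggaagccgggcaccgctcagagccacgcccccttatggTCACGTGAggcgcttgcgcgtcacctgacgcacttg
CTSA: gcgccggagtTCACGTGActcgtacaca
The LAMP1 stretch, which ends 3 bases before the start, holds 4 copies of the core word in addition to 1 of the longer word, and the MCOLN1 stretch holds 2 copies of the longer word. The whole windows of LAMP1 and GAA also hold 2 copies each of the longer word, of which the stretches show 1. Of the 28 genes with an entry that rose in the senescent controls (below) 8 held CACGTG, as did 1 of the 5 that were tested and did not rise, and 16 of 82 promoters of other lysosome and autophagy genes (19.5%) did. TCACGTGA was in 5 of those 28, in 1 of those 5 (CLN3, not shown above) and in 10 of those 82 (12.2%). No CACGTG was found in the windows of GLB1, FUCA1, NPC1, LIPA, TFEB or TFE3.

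Per library, 12892442 to 21822152 reads fell in the genes of the table, which does not cover all human genes. Each value was a read count divided by a size factor, so values are called normalised read counts below, and they were not corrected for gene length. The targeted genes were low in their own knockdowns: CCND1 was at 4198 to 5149 after CCND1 siRNA against 25615 to 48813 in the 6 non-targeting libraries, CDK4 was at 105.6 to 109.9 after CDK4 siRNA against 1157 to 1356, and CDK6 was at 727 to 834 after CDK6 siRNA against 4147 to 5689. In the dual knockdown CDK4 was at 115 to 123 and CDK6 at 930.4 to 998. The targets also moved in other knockdowns, on the log2 scale against the controls. CDK4 fell by 0.39 after CDK6 siRNA and by 0.18 after CCND1 siRNA. CDK6 rose by 0.35 after CDK4 siRNA, and CCND1 by 0.31 after CDK4, 0.53 after CDK6 and 0.53 after dual siRNA. In the dual knockdown CDK4 lay 0.51 above the sum of the 2 single kinase effects. All 10 fibroblast markers passed the filter, with a summed value of 457528 to 890116, while 8 markers of macrophages and other blood cells summed to 9.61 to 86.8. Epithelial markers (4 of 6 tested) summed to 1581 to 2679.5. Endothelial markers (3 of 5 tested), nearly all of it TEK, summed to 1763 to 1888 in proliferating cells, 2058 to 3717 in the controls, 2220 to 3283 after CCND1 or CDK4 knockdown, 4092 to 4509 after CDK6 knockdown and 3441 to 3694 in the dual knockdown, while PECAM1 and CDH5 did not exceed 20.6 and 3.28. The part of these cells' markers in the results below was not tested. NT3 replicate 3 stood apart from its group, with an SD of its log2 deviations of 0.344 over all tested genes and 0.165 over the 48 lysosomal genes, against 0.193 to 0.256 and 0.0559 to 0.114 in the other 20 libraries. In bulk RNA, fewer cells of a type and less RNA per cell cannot be told apart.

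The senescent controls (NT3 and NT4, n = 6) were compared with proliferating cells (n = 3) to describe the lysosomal genes in senescence. Most of the 48 tested genes were higher in the senescent controls, led by FUCA1, which encodes the lysosomal alpha-fucosidase, and CTSS, which encodes the protease cathepsin S. By limma with Benjamini-Hochberg adjustment over 11579 genes at a threshold of 0.05, 41 genes rose and 5 fell, and the protease gene CTSB and the membrane protein gene CLN3 passed in neither direction. Among all tested genes 32.6% rose and 36.1% fell. The median log2 fold change of the 48 genes was 0.65, against -0.03 over all tested genes, and 11 rose by more than 1. The 9 control and proliferating libraries did not overlap for 39 of the 48 genes, against 54.1% of all genes. With libraries centred on their medians, the median of all genes moved to 0.09, the calls over all genes went from 3769 higher and 4176 lower to 4614 and 3355, and those among the lysosomal genes to 43 and 2. Against NT3 and NT4 taken singly, 35 genes rose and 2 (GUSB and PPT1) fell in both comparisons. The share of all tested genes that did so was not computed.

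**Figure D1:**
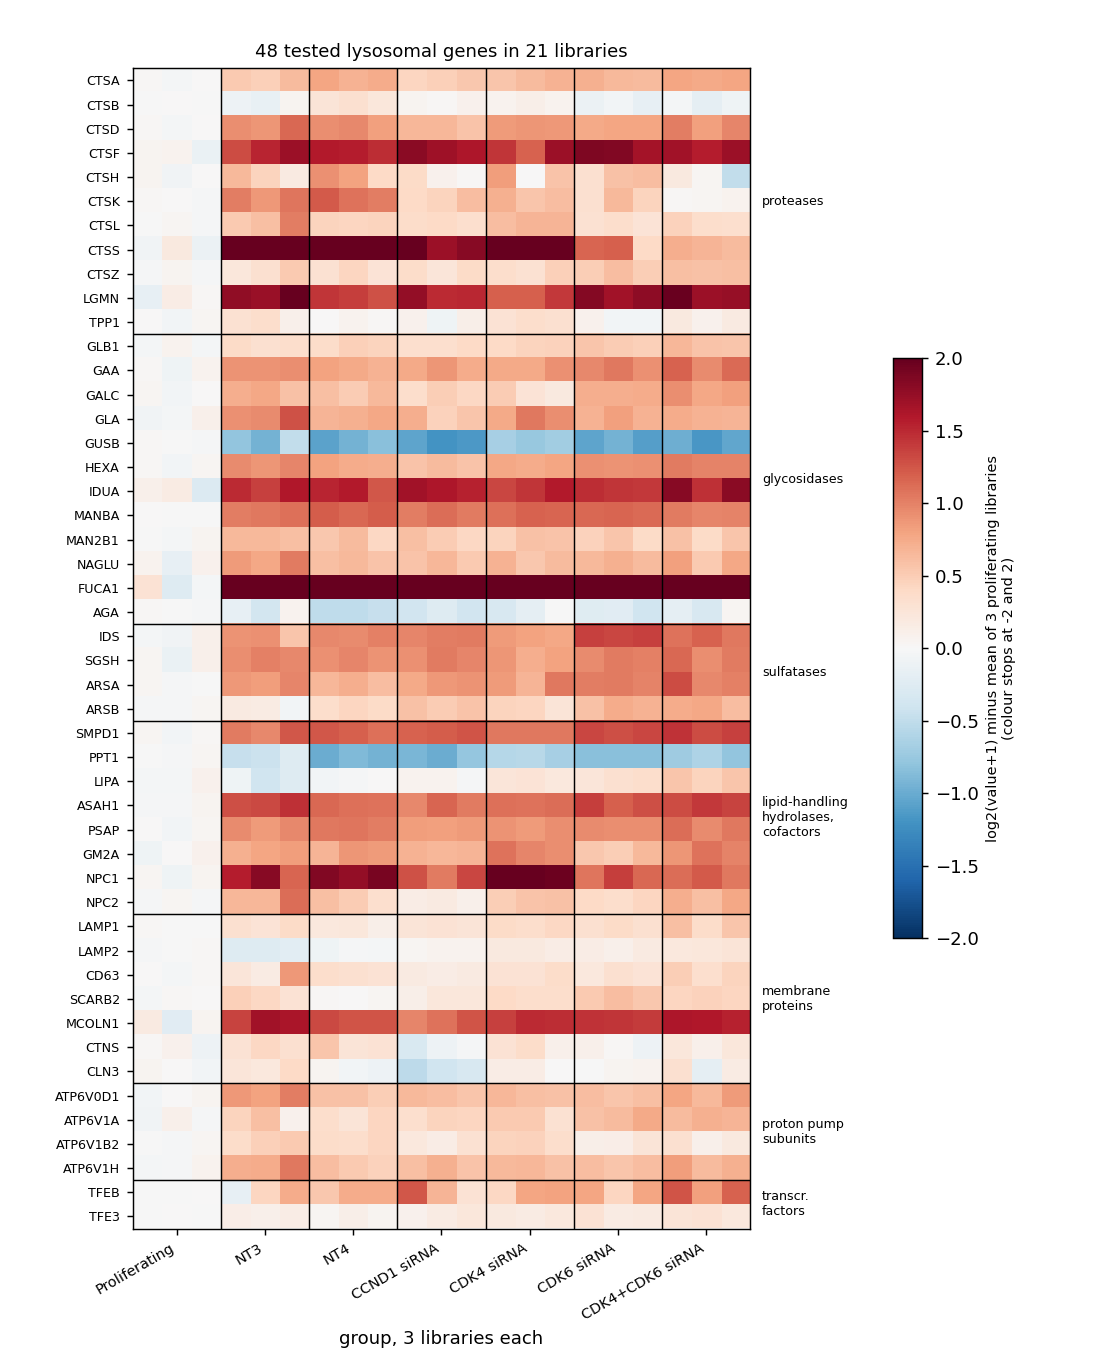
Difference in log2(value + 1) of each library (columns, 3 per group) from the mean of the 3 proliferating libraries, for the 48 tested lysosomal genes (rows, by role); colour stops at -2 and 2. Most rows are red in all 18 irradiated libraries, GUSB and PPT1 are blue in all of them, and CTSS is paler after CDK6 and dual knockdown than in NT3 and NT4.

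Among the proteases, 10 of 11 tested genes rose, with a median log2 fold change of 0.64. CTSS (ENSG00000163131, chr1:150730079-150765957, GRCh38, minus strand) encodes an endopeptidase best known from antigen-presenting cells. CTSS was at 21, 25.5 and 20.4 in the proliferating libraries, 234, 248 and 269 in NT3, and 141, 171 and 139 in NT4. All 6 control libraries lay above the proliferating ones, and NT3 lay above NT4 (log2 fold change over proliferating 3.07, SE 0.15, limma adjusted p = 1.03e-13). The sum of the blood cell markers was also higher in the controls. It was 9.61 to 15.1 in proliferating libraries, 39.7 to 74 in NT3 and 62.5 to 86.8 in NT4. CD14 and CSF1R rose by 2.57 and 0.97 on the log2 scale. ITGAM, PTPRC and MRC1 were at 0 in all proliferating libraries. In the controls they were at 4.97 to 14.6, 2.13 to 8.9 and 1.04 to 9.71. AIF1 was at 0 in all 21 libraries, and CD163 and TYROBP did not exceed 4.15 and 1.95. The part of these markers in the CTSS values was not tested.

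LGMN, which encodes the asparaginyl endopeptidase legumain, was at 173, 215 and 198 in proliferating cells, 668, 643 and 860.4 in NT3 and 525, 511 and 469 in NT4. The groups did not overlap (1.62, SE 0.10, limma adjusted p = 2.11e-12). CTSK (ENSG00000143387, chr1:150794880-150809577, minus strand), which encodes the collagen-cleaving cathepsin K, was at 402, 398 and 392 in proliferating cells against 811, 726 and 831 in NT3 and 934, 843 and 806 in NT4, a rise of 1.05 (SE 0.07, limma adjusted p = 3.22e-11). The genes of the aspartic protease cathepsin D (CTSD) and of the cysteine protease cathepsin F (CTSF) rose by 0.95 and 1.52. CTSA, the gene of cathepsin A, which protects beta-galactosidase and sialidase in a complex, was at 2518 to 2647 in proliferating cells and 3600.4 to 4488 in the controls (0.64). CTSB, the gene of cathepsin B, was the exception: it was at 20460.2, 20676 and 20409 in proliferating cells, 19159, 18434 and 21292 in NT3, and 24643, 25669 and 23958 in NT4. NT4 lay above the other groups, whose libraries overlapped (0.10, SE 0.05, limma adjusted p = 0.0774).

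Of 12 tested glycosidase genes, 10 rose and 2 fell (median 0.79). FUCA1 (ENSG00000179163, chr1:23845077-23868290, minus strand) was at 11.4, 7.45 and 8.86 in proliferating cells, 181, 219 and 219.7 in NT3 and 136, 130.4 and 127 in NT4. All senescent controls were above all proliferating libraries, which held 7 to 13 reads of the gene, and NT3 was above NT4 (4.03, SE 0.15, limma adjusted p = 6.91e-16). Its annotation lists 1 pseudogene, FUCA1P1, and how reads shared with such copies were assigned was not given.

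GLB1 (ENSG00000170266) was at 1367, 1479 and 1363 in proliferating cells, 1830.2, 1754 and 1788 in NT3, and 1815, 1958 and 1902 in NT4. Its groups did not overlap, and the rise of 0.39 (SE 0.05, limma adjusted p = 9.95e-08) was below the median of the glycosidases. GAA, which encodes the acid alpha-glucosidase that breaks down glycogen and whose promoter is shown above, was at 424, 394 and 440.2 in proliferating cells, 781, 785 and 802 in NT3, and 733, 711 and 680.0 in NT4. Its groups did not overlap either (0.83, SE 0.06, limma adjusted p = 1.01e-10). IDUA and MANBA, the genes of alpha-L-iduronidase and beta-mannosidase, rose by 1.47 and 1.12.

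GUSB, which encodes beta-glucuronidase and has 18 named pseudogenes, went the other way. It was at 955, 934 and 921 in proliferating cells, 539, 485 and 667 in NT3 and 445, 486 and 527 in NT4. Every control library lay below every proliferating library (-0.85, SE 0.08, limma adjusted p = 4.86e-09). AGA, the gene of aspartylglucosaminidase, fell by 0.32, but missed the threshold against NT3 alone.

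All 4 sulfatase genes rose. SGSH, which encodes the heparan N-sulfatase, was at 871, 773 and 912 in proliferating cells, 1615, 1712 and 1654 in NT3, and 1600.4, 1675 and 1584 in NT4, with no overlap (0.95, SE 0.06, limma adjusted p = 3.64e-12). IDS, the gene of iduronate 2-sulfatase, was at 1581, 1543 and 1731 in proliferating cells against 3009, 3034 and 2379.8 in NT3 and 3136, 3125 and 3244 in NT4, again without overlap (0.88, SE 0.06, limma adjusted p = 3.76e-11). IDS shares 6968 exon bases with a second annotated coding gene on the same strand, so its values are uncertain. ARSB, the gene of arylsulfatase B, was at 1094, 1096 and 1137 in proliferating cells, 1261, 1239 and 1064 in NT3, and 1413, 1492 and 1446 in NT4. NT4 was above and NT3 overlapped the proliferating libraries, and the rise of 0.24 (SE 0.06, limma adjusted p = 0.00124) missed the threshold with NT3 as the only control.

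Among 8 genes of lipid-handling hydrolases and cofactors, 6 rose and 2 fell (median 0.89). NPC1 (ENSG00000141458, chr18:23506184-23586506, minus strand) encodes the membrane transporter that moves cholesterol out of lysosomes. NPC1 was at 709, 646 and 711 in proliferating cells, 2046, 2435 and 1546 in NT3 and 2483, 2341 and 2565 in NT4, with no overlap (1.68, SE 0.10, limma adjusted p = 4.28e-12). ASAH1 and SMPD1, the genes of acid ceramidase and acid sphingomyelinase, rose by 1.23 and 1.13, and PSAP, whose product yields the saposin activators, rose by 0.99.

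PPT1 encodes a palmitoyl-protein thioesterase. PPT1 was at 1195, 1172 and 1224 in proliferating cells, 869.9, 889.6 and 1006 in NT3 and 602, 645 and 618 in NT4, so that all controls were lower and NT4 was lower than NT3 (-0.66, SE 0.06, limma adjusted p = 2.15e-09). LIPA (ENSG00000107798, chr10:89213569-89414557, minus strand) encodes the acid lipase that cleaves cholesteryl esters and triglycerides. LIPA was at 1011, 1007 and 1105 in proliferating cells, 976, 787 and 874 in NT3, and 1001, 1018 and 1045 in NT4, and these ranges overlapped (-0.14, SE 0.06, limma adjusted p = 0.0451). This call was lost with median centring, with NT4 as the only control, and without any 1 proliferating library, NT3 replicate 2, or NT4 replicate 1 or 2 (limma adjusted p = 0.0511 to 0.239).

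Of the 7 membrane protein genes, 5 rose and LAMP2 fell (median 0.25). MCOLN1, which encodes the calcium channel TRPML1, was at 232, 176 and 213 in proliferating cells, 525, 658 and 641 in NT3, and 512, 490.5 and 495 in NT4, with no overlap (1.41, SE 0.08, limma adjusted p = 1.97e-12). LAMP1 (ENSG00000185896) was at 7227, 7045 and 7070.3 in proliferating cells, 8851, 8572 and 9307 in NT3, and 8201, 8316 and 7707 in NT4, also without overlap (0.25, SE 0.05, limma adjusted p = 9.84e-05). LAMP2 (ENSG00000005893, chrX:120426148-120469365, minus strand) was at 3416, 3433 and 3520.1 in proliferating cells, 2891, 2899 and 2980.5 in NT3, and 3245, 3393 and 3373 in NT4. The controls were lower, NT3 more so than NT4 (-0.15, SE 0.04, limma adjusted p = 0.00165), and the call was lost with NT4 as the only control and with median centring. LAMP1 and LAMP2, often used together as lysosome markers, thus differed from proliferating cells in opposite directions here.

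All 4 proton pump genes rose. ATP6V0D1, a subunit of the membrane-bound part, was at 1338, 1408 and 1441 in proliferating cells, 2552, 2443 and 2851 in NT3, and 2103, 2101 and 1969.8 in NT4, without overlap (0.73, SE 0.05, limma adjusted p = 7.85e-11). ATP6V1A, the catalytic subunit of the cytosolic part, was at 1788, 2021 and 1857 in proliferating cells, 2560.0, 2849.8 and 2001 in NT3 and 2397, 2268 and 2547 in NT4 (0.36, SE 0.08, limma adjusted p = 0.000498). Only NT3 replicate 3, at 2001, fell within the proliferating range for ATP6V1A.

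Both transcription factor genes passed the threshold by smaller margins. TFEB (ENSG00000112561, chr6:41683978-41736259, minus strand) was at 59.4, 59.6 and 60.2 in proliferating cells, 52.9, 80.9 and 100.7 in NT3, and 86.8, 100.2 and 100.99 in NT4. NT3 replicate 1 lay below the proliferating libraries and the other 5 controls lay above them (0.50, SE 0.19, limma adjusted p = 0.0234). Leaving out any 1 proliferating library ended the TFEB call, with a limma adjusted p of 0.0544 to 0.059. TFEB was also not among the genes that rose against both NT3 and NT4 taken singly. Its call was kept in 14 of 19 other settings, with log2 fold changes of 0.33 to 0.67. TFE3 was at 2787, 2828 and 2792 in proliferating cells, 3072, 3019 and 3113 in NT3 and 2865, 3046 and 2917 in NT4, which did not overlap but were close (0.10, SE 0.04, limma adjusted p = 0.0453). The TFE3 call was lost against NT4 alone and without any 1 proliferating library, NT3 replicate 1, or NT4 replicate 2 or 3 (limma adjusted p = 0.0547 to 0.111).

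**Figure D2:**
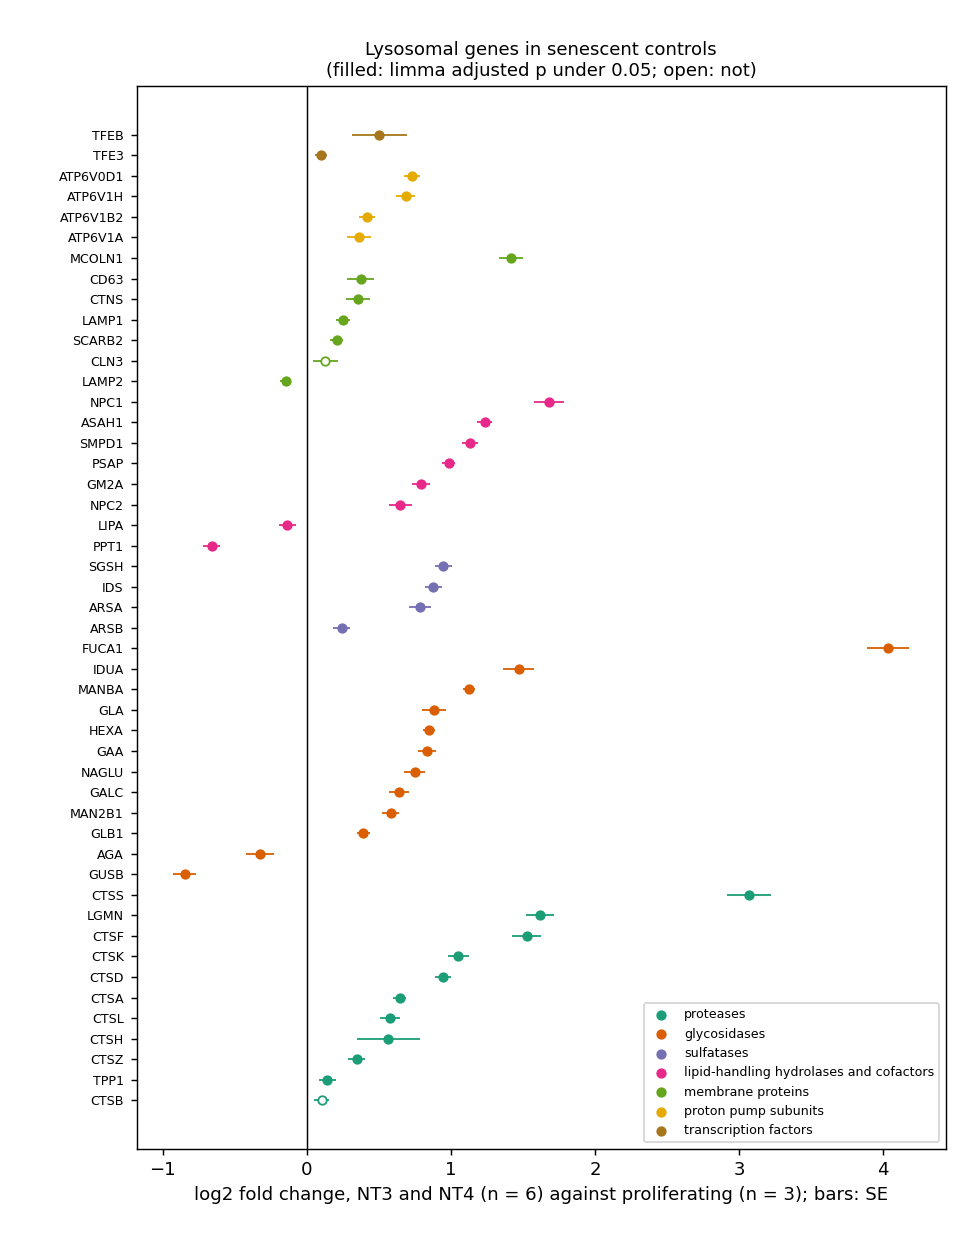
Log2 fold change with SE of the 48 tested genes in the 6 senescent control libraries against the 3 proliferating libraries, by role; filled points passed the limma threshold. FUCA1 at 4.03 and CTSS at 3.07 lie farthest right, and GUSB, PPT1, AGA, LAMP2 and LIPA lie left of 0.

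Among 95 other lysosome and autophagy genes that were tested, 58 rose and 11 fell in the senescent controls, against 32.6% and 36.1% of all tested genes. Proton pump subunits outside the 4 above rose in 11 of 12 cases, led by ATP6V0A1 at 1.44, with ATP6V0A2 falling by 0.44. Among 20 other hydrolases and activators 11 rose and 2 fell, and the acid phosphatase gene ACP5 rose most (2.28, on 2.62 to 7.09 normalised reads in proliferating cells and 21.1 to 32.2 in the controls). Among 14 other membrane proteins and transporters 12 rose and 2 fell. LAPTM5 rose most, at 2.08, from 0 to 4.43 in proliferating libraries to 6.23 to 17.3 in the controls, and LAPTM4B fell by 0.33. Of 19 autophagy genes 13 rose and 2 fell. The receptor gene SQSTM1 was at 5555 to 5804 in proliferating cells and 16608 to 20931 in the controls (1.64), and the lipid kinase subunit gene PIK3R4 fell by 0.30. Among 14 genes of enzyme sorting 6 rose and 2 fell, from GNPTG at 0.91 to GGA2 at -0.39, and among 16 of nutrient sensing 5 rose and 2 fell. In the latter list the small GTPase gene RHEB fell by 0.41, and TFEC, a relative of TFEB, held at most 1 read in any proliferating library and 11.7 to 22 normalised reads in the controls.

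Since each knockdown was set against NT3 and NT4 together, NT4 was also compared with NT3. In NT4, 5 of the 48 genes were higher and 17 lower, against 14.7% and 13.1% of all tested genes (median -0.09, against -0.01 over all genes), and NT3 and NT4 libraries did not overlap for 28 genes (34.9% of all genes). The differences were largest for CTSS (-0.73, SE 0.18, limma adjusted p = 0.00371), FUCA1 (-0.65, SE 0.17, limma adjusted p = 0.00684) and PPT1 (-0.56, SE 0.07, limma adjusted p = 2.96e-06), whose NT3 and NT4 libraries, given above, did not overlap. CTSB, ARSB, LIPA, LAMP2 and CTSA were higher in NT4, by 0.34, 0.29, 0.22, 0.19 and 0.19. The call on LIPA was lost without NT3 replicate 2 or NT4 replicate 3 (limma adjusted p = 0.0956 and 0.0687), and that on CTSA without NT4 replicate 1 (0.0611). SCARB2, which encodes LIMP2, the receptor that carries glucocerebrosidase to lysosomes, was at 7243, 6958 and 6379.7 in NT3 and 5313, 5282 and 5399 in NT4, without overlap (-0.36, SE 0.05, limma adjusted p = 1.8e-05). With these 2 groups fitted alone, 6 of the 22 calls passed. A call against both controls together can therefore rest on 1 of them, and calls against each control alone are given below. The share of all tested genes called against each control alone in both comparisons was not computed. Counts of lysosomal genes under that rule therefore cannot be read against a background.

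The 4 knockdowns were then compared with the same 6 control libraries, so their differences share the spread of those controls. The largest falls recurred in a few genes that were high in senescence, CTSS (not called after CDK4 knockdown), FUCA1 and CTSK. The rise in senescence was measured from the same 6 controls, so high control values would enlarge both it and these falls. LIPA and LAMP2 were higher in all 4 knockdowns. The median difference of a library's 48 genes from the proliferating mean, on the log2 scale, was 0.68 to 0.85 in NT3, 0.54 to 0.64 in NT4, 0.50 to 0.57 in CCND1 knockdown, 0.59 to 0.63 in CDK4 knockdown, 0.60 to 0.63 in CDK6 knockdown and 0.66 to 0.74 in the dual knockdown, so every irradiated library stayed far above the proliferating ones (-0.02 to 0.01). CCND1 knockdown overlapped NT4 in this measure, and the dual knockdown overlapped NT3.

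**Figure D3:**
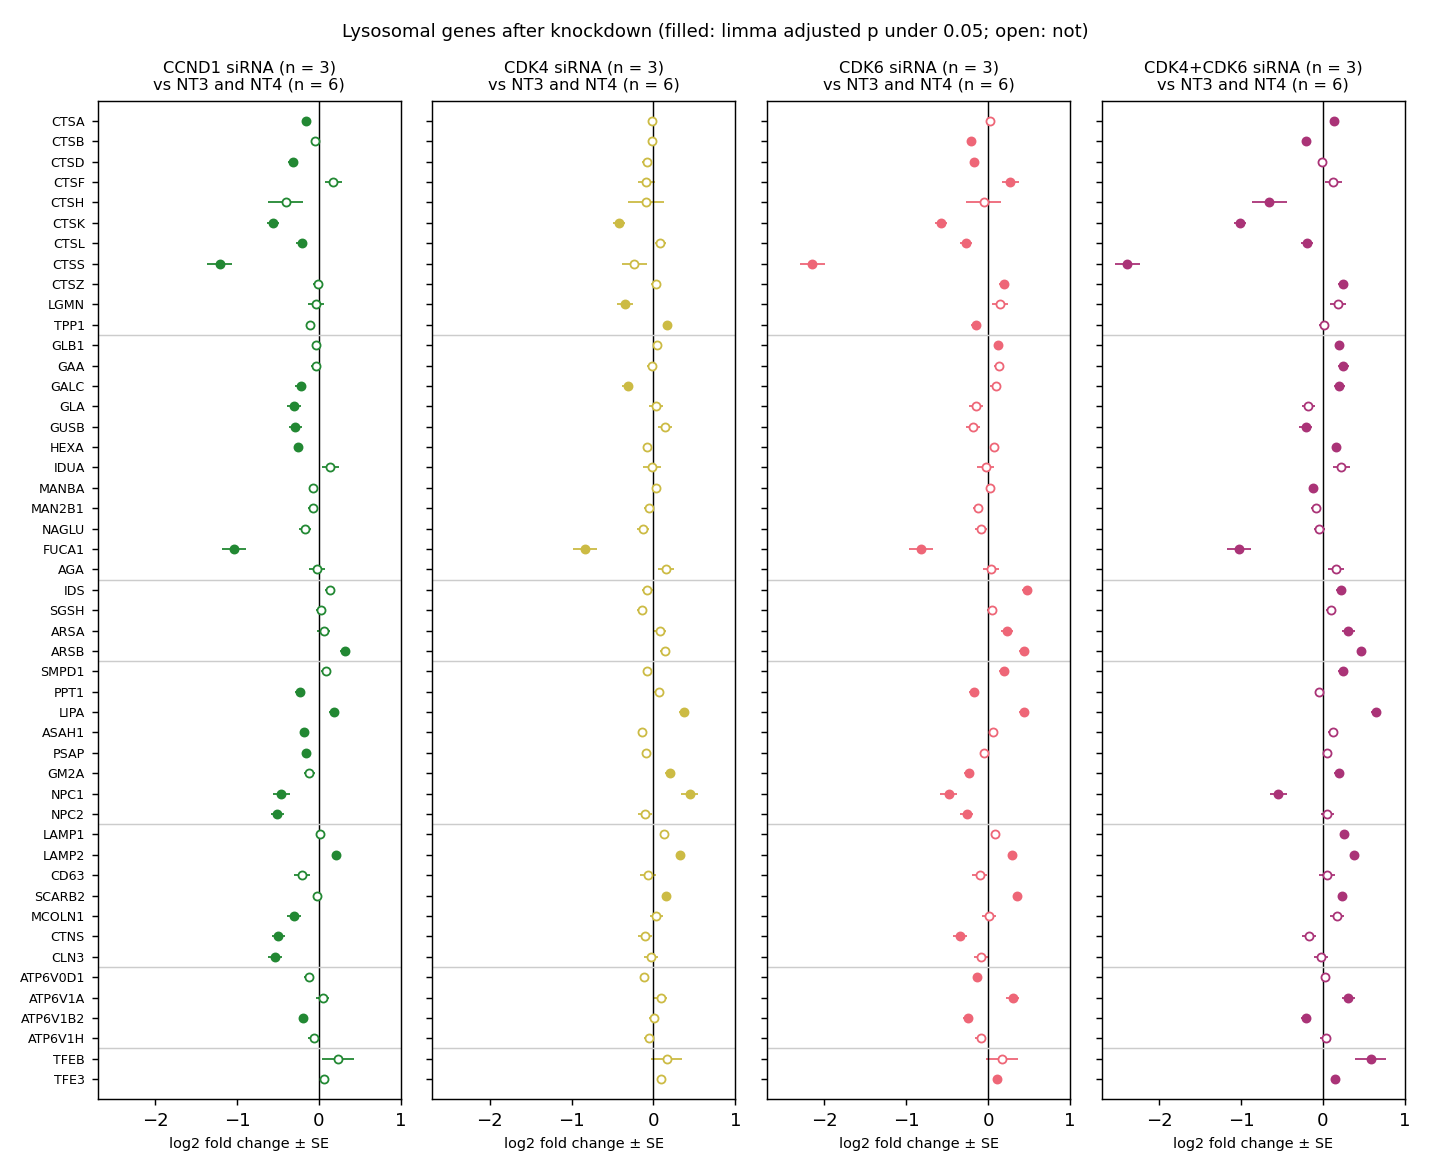
Log2 fold change with SE of the 48 tested genes for each knockdown (n = 3) against the 6 non-targeting libraries, in the order of the heat map; filled points passed the limma threshold. CTSS is far to the left after CCND1, CDK6 and dual knockdown and near 0 after CDK4 knockdown, and FUCA1 and CTSK are left of 0 in all 4 panels.

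After CCND1 knockdown 3 of 48 genes rose and 19 fell, against 16.7% and 14.4% of all tested genes, and the median was -0.11 (all genes -0.01). Knockdown and control libraries did not overlap for 13 genes (21.2% of all genes). Genes that fell included 5 of 11 proteases, 5 of 12 glycosidases, 5 of 8 lipid-handling genes and 3 of 7 membrane protein genes. CTSS was at 95.7, 74.7 and 80.5, below all 6 controls (-1.21, SE 0.15, limma adjusted p = 4.21e-06). FUCA1 was at 83, 89.6 and 67.7 and CTSK at 523, 543 and 607, also below all controls (-1.04, SE 0.15, and -0.56, SE 0.07, limma adjusted p = 1.65e-05 and 6.09e-06). In the same libraries the blood cell markers summed to 14.9 to 37.2, below every control, and CD14 and CSF1R fell by 1.01 and 1.16. Their part in the fall of CTSS was not tested.

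NPC2, whose soluble product hands cholesterol to NPC1, was at 1051, 1064 and 1007 after CCND1 knockdown against 1491, 1499.7 and 2056 in NT3 and 1435, 1338 and 1186 in NT4, with no overlap (-0.51, SE 0.08, limma adjusted p = 5.68e-05). CLN3 and CTNS, the genes of battenin and of the cystine transporter, fell by 0.54 and 0.49. The 3 genes that rose were ARSB (1669, 1583 and 1640.0), LAMP2 (3558, 3612 and 3646) and LIPA (1095, 1097 and 1028), by 0.31, 0.21 and 0.18, and all 3 calls were lost with NT4 as the only control. LIPA also missed the threshold without CCND1 replicate 1 or 2 (limma adjusted p = 0.0912 and 0.0961). Against each control alone, 8 genes fell in both comparisons (CLN3, CTNS, CTSD, CTSK, CTSS, FUCA1, HEXA and NPC2) and none rose in both. Against NT4 alone 13 genes passed and the median was -0.04. Without CCND1 replicate 2, 14 genes passed.

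CDK4 knockdown changed fewer of the genes: 6 rose and 4 fell, against 8.46% and 7.55% of all tested genes (median -0.02), and 9 did not overlap the controls (11.2% of all genes). NPC1 was at 3033, 3313 and 2678, above every control library (0.44, SE 0.10, limma adjusted p = 0.00523), but missed the threshold against NT4 alone and without CDK4 replicate 2 (limma adjusted p = 0.0578). LIPA was at 1228, 1258 and 1197 and LAMP2 at 3951, 3947 and 3821, each above all controls (0.38, SE 0.06, and 0.32, SE 0.04, limma adjusted p = 0.000133 and 3.85e-06). CTSS, at 161, 179 and 155, lay between the NT4 and NT3 means and did not pass (-0.23, SE 0.15, limma adjusted p = 0.34). The blood cell markers summed to 40.6 to 49.2, within the NT3 range and below NT4. Their part in the CTSS values was not tested. Of the genes that fell, FUCA1 was at 91.9, 102.5 and 82.4 (-0.83, SE 0.15, limma adjusted p = 0.00043), a call lost against NT4 alone, and CTSK was at 649.7, 581 and 609 (-0.43, SE 0.07, limma adjusted p = 0.000329). Both lay below all 6 controls.

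LGMN was at 447, 448 and 522 after CDK4 knockdown, below NT3 but overlapping NT4 (-0.35, SE 0.10, limma adjusted p = 0.0162), and missed the threshold without CDK4 replicate 1 or 2 (0.0899 and 0.0964). GALC, which encodes the galactosylceramidase, was at 651, 555 and 524 against 755, 783 and 684 in NT3 and 694, 654 and 720.4 in NT4, just below all controls (-0.31, SE 0.07, limma adjusted p = 0.0023). Against each control alone, LAMP2 and LIPA rose and CTSK and GALC fell in both comparisons. The count was 17 with NT3 as the only control, 5 without CDK4 replicate 2 and 6 without CDK4 replicate 1.

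After CDK6 knockdown 12 genes rose and 14 fell, against 21.1% and 20.8% of all tested genes, with a median of -0.01, and 17 did not overlap the controls (28.6% of all genes). CTSS was at 50.9, 52.2 and 29.7, below all controls (-2.15, SE 0.15, limma adjusted p = 6.02e-10). CTSK was at 495, 623 and 538 and FUCA1 at 100.8, 78.3 and 100.6, both below all controls (-0.58, SE 0.07, and -0.82, SE 0.15, limma adjusted p = 1.84e-06 and 0.00012). Blood cell markers summed to 28.7 to 39.7, below every control, though only just for NT3 (39.695 against 39.728). Neither CD14 (-0.61) nor CSF1R (-0.54) passed the threshold, and ITGAM was at 0 to 1.86 against 4.97 to 14.6 in the controls. The part of these markers in the fall of CTSS was not tested.

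Of the 4 sulfatase genes 3 were among those that rose after CDK6 knockdown. For ARSA the rise of 0.23 (limma adjusted p = 0.0185) did not pass against NT3 alone (adjusted p = 0.263) or without CDK6 replicate 1 or 2 (adjusted p = 0.0554 and 0.0616). IDS was at 4182, 4083 and 4149 and ARSB at 1671, 1861 and 1806, each above every control (0.48, SE 0.06, and 0.44, SE 0.06, limma adjusted p = 2.72e-06 and 5e-06). LIPA was at 1227, 1296 and 1328 and LAMP2 at 3837, 3722 and 3926, again above all controls (0.44, SE 0.06, and 0.29, SE 0.04, limma adjusted p = 4.08e-06 and 2.25e-06). SCARB2 was at 7558, 8016 and 7641, above even the NT3 libraries (0.36, SE 0.04, limma adjusted p = 1.52e-06). NPC1, in contrast to CDK4 knockdown, was at 1442, 1788 and 1522 (-0.48, SE 0.10, limma adjusted p = 0.000788). Within the pump, ATP6V1A was at 2820.4, 2936 and 3203 (0.30, SE 0.08, limma adjusted p = 0.00529), overlapping the highest NT3 library, while ATP6V1B2 fell by 0.25. Against each control alone, 7 genes rose and 7 fell in both comparisons.

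The dual knockdown raised 18 of the 48 genes and lowered 10, against 22.5% and 21.5% of all tested genes, and the median was 0.11 (all genes 0.00). Libraries of 18 genes did not overlap the controls (28.3% of all genes). CTSS was at 37.5, 36 and 35, the lowest of the irradiated groups together with CDK6 knockdown, whose range it overlapped (-2.39, SE 0.15, limma adjusted p = 5.58e-11). CTSK was at 402, 409 and 417, close to the 392 to 402 of proliferating cells (-1.01, SE 0.07, limma adjusted p = 4.38e-10). FUCA1 was at 97.1, 71 and 75.1, below all controls but far above proliferating cells (-1.02, SE 0.15, limma adjusted p = 7.46e-06). NPC1 was at 1499, 1605 and 1431 and overlapped NT3 replicate 3 (-0.55, SE 0.10, limma adjusted p = 0.000214). CTSH, the gene of the aminopeptidase cathepsin H, fell by 0.65 on 21, 19 and 14 reads. That call was lost without dual knockdown replicate 3 (limma adjusted p = 0.146) and against NT3 alone. The blood cell markers summed to 21 to 26.2, below every control, and CD14 and CSF1R fell by 0.91 and 1.56; their part in the fall of CTSS was not tested.

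LIPA reached 1526, 1412 and 1527 in the dual knockdown, above every library of every other group (0.65 over controls, SE 0.06, limma adjusted p = 1.2e-08). LAMP2 was at 4001, 4043 and 4131, likewise above all other libraries (0.38, SE 0.04, limma adjusted p = 4.77e-08). LAMP1 was at 10842, 9179.9 and 10473, with 1 library inside the NT3 range (0.26, SE 0.05, limma adjusted p = 0.000201), a call lost with quantile normalization. GLB1 was at 2221, 2075 and 2064, above all controls (0.20, SE 0.05, limma adjusted p = 0.000952), as was GAA, at 948, 808 and 921 (0.25, SE 0.06, limma adjusted p = 0.00249).

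ARSB was at 1863, 1903 and 1693 in the dual knockdown (0.47, SE 0.06, limma adjusted p = 1.55e-06) and ATP6V1A at 2916, 3093 and 3023 (0.31, SE 0.08, limma adjusted p = 0.00359), both above all controls. TFEB was at 145, 105.9 and 137, above all 6 controls (0.58, SE 0.19, limma adjusted p = 0.0165), but the call was lost against NT4 alone and without dual knockdown replicate 1 or 3 (limma adjusted p = 0.0877 and 0.0684). TFE3 was at 3359, 3423 and 3248 (0.15, SE 0.04, limma adjusted p = 0.00636). SGSH, at 1886, 1625 and 1753, and MCOLN1, at 635, 628 and 602, overlapped the controls and did not pass (0.10 and 0.18). PPT1, at 731, 782 and 695, lay between NT4 and NT3, and did not pass (-0.04). GUSB, at 473, 419 and 457, overlapped NT4, and its call (-0.21, SE 0.08, limma adjusted p = 0.038) was lost without any 1 of 5 libraries: NT3 replicate 3, NT4 replicate 2 or 3, or dual knockdown replicate 2 or 3 (0.0551 to 0.18). Against each control alone 9 genes rose (ARSB, ATP6V1A, CTSZ, GLB1, LAMP1, LAMP2, LIPA, SMPD1 and TFE3) and 5 fell (ATP6V1B2, CTSK, CTSS, FUCA1 and NPC1) in both comparisons. With NT3 as the only control the median of the 48 genes was 0.00, and with NT4 it was 0.17.

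Among GLB1, LAMP1 and the 2 transcription factor genes, the single knockdowns gave calls only for GLB1 and TFE3, both after CDK6 knockdown. GLB1 was at 1849, 1903 and 1938 after CDK4 knockdown, overlapping the controls (0.04, SE 0.05, limma adjusted p = 0.576), and at 2063, 1991 and 1958 after CDK6 knockdown where the lowest library and the highest NT4 library both rounded to 1958 (0.12, SE 0.05, limma adjusted p = 0.0329). The latter call was lost without NT4 replicate 1 or CDK6 replicate 1 or 2 (limma adjusted p = 0.0694 to 0.146), and GLB1 did not pass after CCND1 knockdown (-0.03). LAMP1 was at 9271, 9053 and 9460.3 after CDK4 knockdown and at 8841, 9239 and 8900.0 after CDK6 knockdown, overlapping NT3 in both cases, and did not pass (0.13 and 0.08). TFEB varied within groups: it was at 143, 96 and 73.6 after CCND1 knockdown, 79.6, 103.5 and 105.02 after CDK4 knockdown and 103.8, 81.1 and 104.4 after CDK6 knockdown, on 51 to 137 reads a library over all groups, and passed in none of the 3. TFE3 was at 2979.9, 3155 and 3279, at 3219, 3137 and 3259, and at 3435, 3137 and 3165 in the same order, with a call only after CDK6 knockdown (0.11, SE 0.04, limma adjusted p = 0.0451). That call was lost without any 1 of 6 libraries, NT3 replicate 1 or 2, NT4 replicate 1 or 3, and CDK6 replicate 1 or 3 (limma adjusted p = 0.0589 to 0.287).

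**Figure D4:**
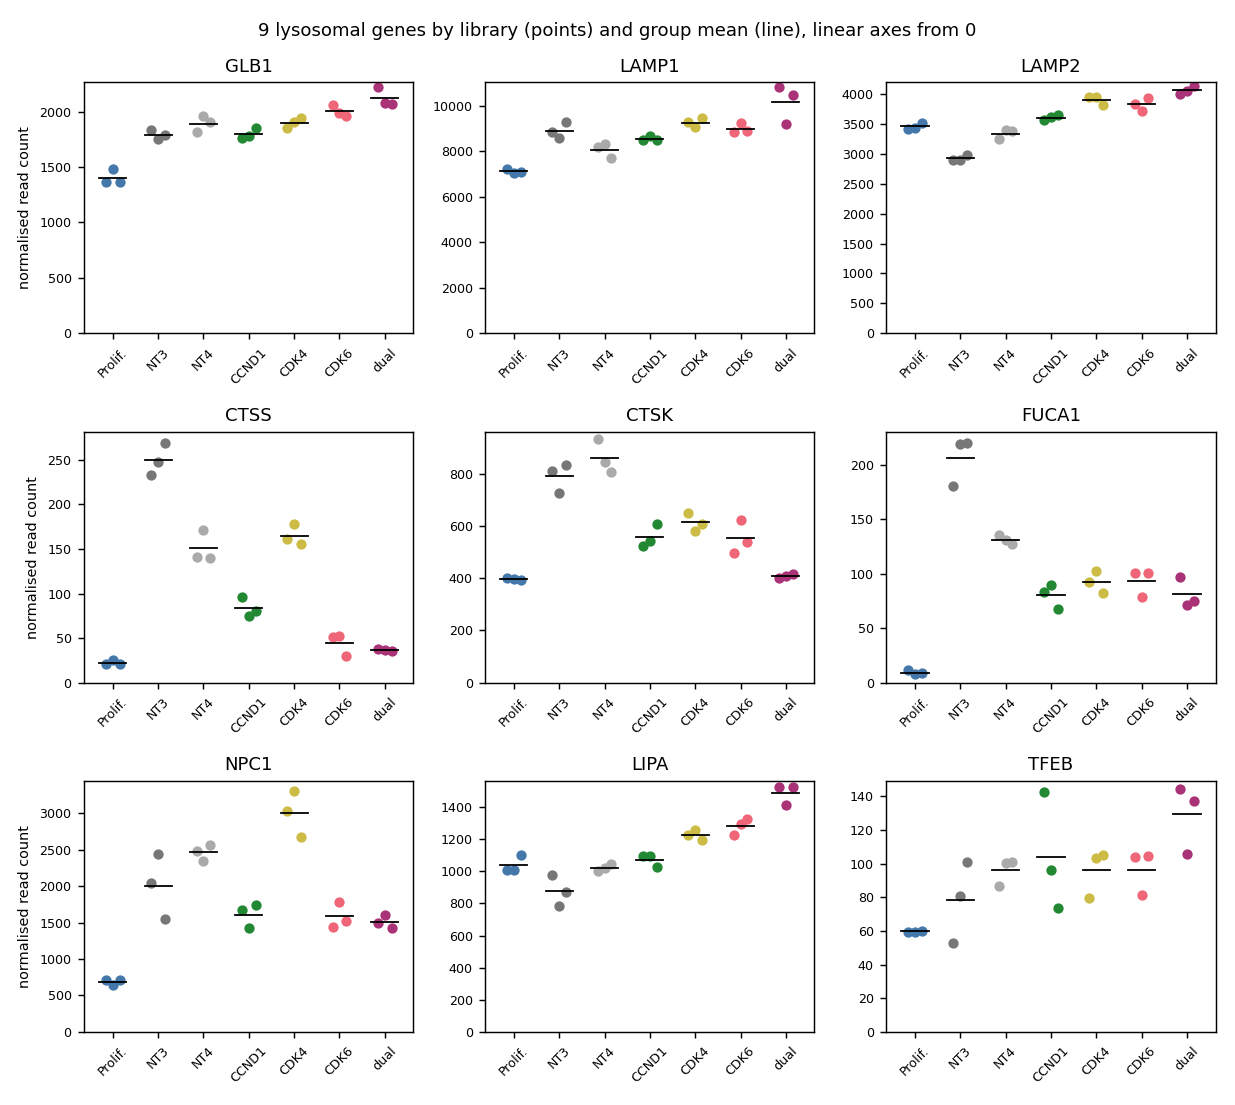
Normalised read counts of 9 lysosomal genes in each of the 21 libraries (points) with the group mean (line), on linear axes from 0. LIPA and LAMP2 are highest in the dual knockdown, CTSK in the dual knockdown (402 to 417) lies next to proliferating cells (392 to 402), and TFEB libraries are spread widely within the CCND1 and NT3 groups.

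Other lysosome and autophagy genes showed 27 rises and 13 falls among 95 in the dual knockdown, against 22.5% and 21.5% of all tested genes. GNPTAB, which encodes the phosphotransferase that makes the mannose 6-phosphate sorting tag, was at 2094, 2255 and 2043 against 911 to 1549 in the controls (0.79, SE 0.10, limma adjusted p = 2.46e-06), and the receptor gene M6PR fell by 0.29. Among the genes of enzyme sorting 7 of 14 rose and 2 fell. ABCA2, a lipid transporter gene, was at 1237, 1067 and 1055 against 424 to 801 (0.74), and SLC11A2, an iron transporter gene, fell by 0.19. Of 20 other hydrolases 7 rose, led by the phospholipase gene PLA2G15 at 0.41, and 2 fell, ACP5 most (-1.77, at 5.46 to 8.83 normalised reads). The ATG8-family gene GABARAPL1 was at 4728, 4987 and 4628, above NT4 (2378 to 2478) and overlapping NT3 (3849 to 4629.7), and SQSTM1 was at 11789.6 to 12239, below all controls (0.57 and -0.56). MITF, a relative of TFEB, rose by 0.46, RRAGD fell by 1.60 on 4 to 9.93 normalised reads, and in the pump ATP6V0A1 rose by 0.16 and ATP6V0B fell by 0.29.

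Whether the dual knockdown departed from the 2 single kinase effects added together was tested as an interaction on the log2 scale. Of the 48 genes 3 were above the sum and 2 below it, against 2.63% and 3.71% of all tested genes. GALC was at 871, 784 and 813 in the dual knockdown against 757, 758 and 765 after CDK6 knockdown and 524 to 651 after CDK4 knockdown (departure 0.43, SE 0.10, limma adjusted p = 0.0138). NPC2 was at 1554, 1436 and 1621 against 1238, 1200.1 and 1268 and 1325, 1395 and 1411 (0.42, SE 0.12, limma adjusted p = 0.0435). The dual knockdown was above both single knockdowns for these 2 genes. ATP6V0D1 was above the sum by 0.27, and LAMP2 and SCARB2 were below it by 0.24 and 0.28. None of the 5 calls held under all alternatives run, and the test reuses the 6 controls: with NT3 as the only control 13 genes passed, and with NT4 2. Leaving out 1 library gave 2 to 8 calls, with 2 without CDK4 replicate 1 or CDK6 replicate 3 and 8 without NT3 replicate 2 or 3. NPC2 and ATP6V0D1 each missed the threshold without any 1 of 10 libraries (limma adjusted p = 0.0602 to 0.118 and 0.0664 to 0.149), LAMP2 without CDK6 replicate 3 (0.0537) and SCARB2 without CDK4 replicate 1 (0.051).

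CDK6 knockdown was also set directly against CDK4 knockdown, a comparison without the controls. In CDK6 knockdown 10 genes were higher and 9 lower, against 17.5% and 17.3% of all tested genes (median -0.01), and 24 did not overlap (51.7% of all genes). CTSS was lower by 1.91 (SE 0.18, limma adjusted p = 3.02e-08) and NPC1 by 0.93 (SE 0.12, limma adjusted p = 3.12e-06), and their libraries, given above, did not overlap. IDS was higher by 0.55 (SE 0.07, limma adjusted p = 3.2e-06), LGMN by 0.50 (SE 0.11, limma adjusted p = 0.00135) and GALC by 0.40 (SE 0.08, limma adjusted p = 0.000285). LIPA, LAMP2, FUCA1 and CTSK did not pass, with differences of 0.06, -0.03, 0.01 and -0.16. Of the 4 sulfatase genes 3 were higher in CDK6 knockdown, and SGSH, at 1634, 1746 and 1702 against 1569, 1401 and 1485, was one of them (0.19, SE 0.07, limma adjusted p = 0.0308), though not without CDK4 replicate 2 or 3 or CDK6 replicate 2 or 3 (0.0668 to 0.144).

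CCND1 knockdown was set against the dual knockdown to compare loss of the cyclin with loss of its kinases. In CCND1 knockdown 2 of the 48 genes were higher and 20 lower, against 11.2% and 9.12% of all tested genes, and the median was -0.18 (all genes 0.00). The 2 groups did not overlap for 27 genes (40.9% of all genes). CTSS and CTSK were the 2 higher genes, by 1.18 (SE 0.18, limma adjusted p = 4.41e-05) and 0.44 (SE 0.08, limma adjusted p = 0.000638). Of 7 membrane protein genes 6 were lower: MCOLN1, at 406, 439.6 and 491 against 635, 628 and 602, by 0.48 (SE 0.10, limma adjusted p = 0.00097), and LAMP1, at 8476, 8671 and 8517 against 10842, 9179.9 and 10473, by 0.25 (SE 0.06, limma adjusted p = 0.0033). NPC2, LIPA and GALC were lower by 0.56, 0.47 and 0.42. GLB1 was at 1764, 1777 and 1853 against 2221, 2075 and 2064 (-0.24, SE 0.05, limma adjusted p = 0.00222), without overlap. FUCA1 was at 67.7 to 89.6 in CCND1 knockdown and at 71 to 97.1 in the dual knockdown (-0.01, SE 0.17, limma adjusted p = 0.969).

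Finally the dual knockdown was set against proliferating cells, which are shared with the comparison of the senescent controls. Here 40 of 48 genes were higher and 2 lower, against 32.7% and 32.9% of all tested genes, with a median of 0.71 (all genes 0.00), and 44 of 48 did not overlap (73.1% of all genes). With median centring the all-gene median became 0.13, and calls over all genes went from 3790 higher and 3805 lower to 4697 and 2992, and those among the lysosomal genes to 42 and 2. GUSB and PPT1 were the 2 lower genes (-1.06, SE 0.09, and -0.70, SE 0.07, limma adjusted p = 1.63e-09 and 9.81e-09). MCOLN1, LGMN and NPC1 were higher by 1.59, 1.81 and 1.13, LAMP1 by 0.51, LAMP2 by 0.23, LIPA by 0.52, GLB1 by 0.60 and TFEB by 1.09. CTSS was higher by 0.68 (SE 0.18, limma adjusted p = 0.00183), while CTSK was at 402, 409 and 417 against 402, 398 and 392 (0.04, SE 0.08, limma adjusted p = 0.662).

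**Figure D5:**
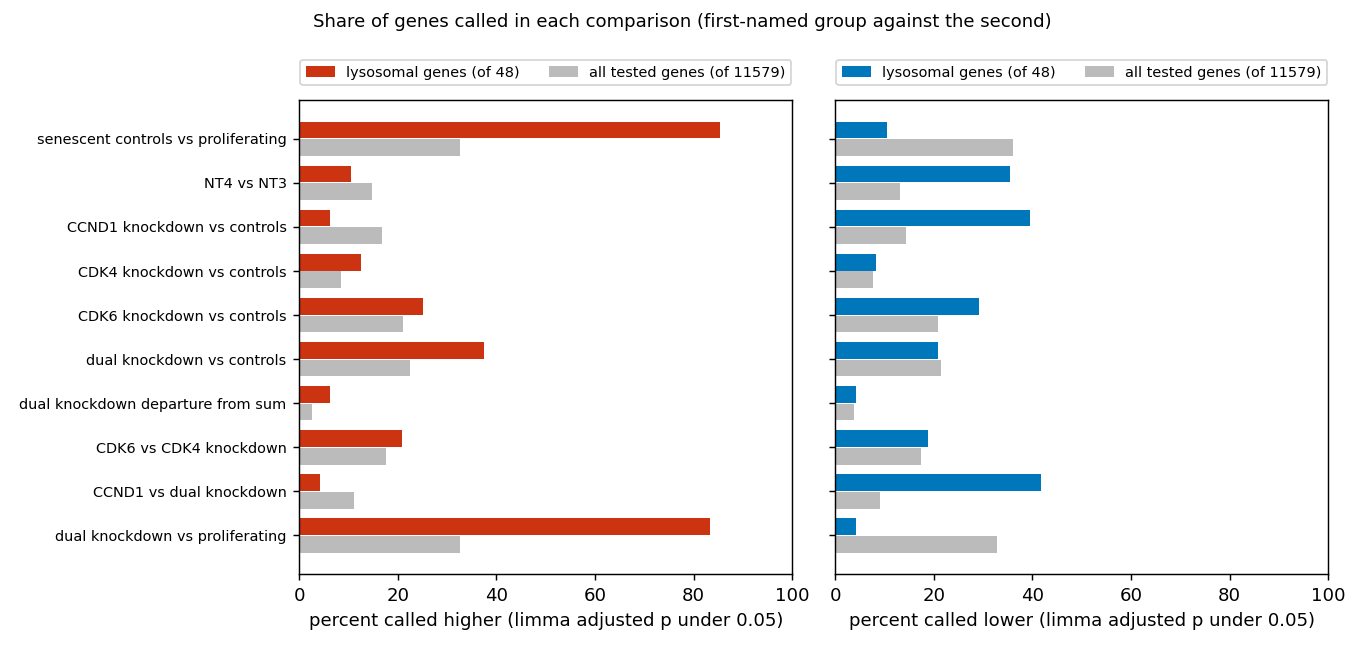
Percent of the 48 lysosomal genes (coloured bars) and of all 11579 tested genes (grey bars) called higher (left) or lower (right) in each comparison, first-named group against the second; axes start at 0. The coloured bar exceeds the grey one most on the left in both comparisons with proliferating cells (41 and 40 of 48). On the right it does so most in NT4 against NT3 (17 of 48), CCND1 knockdown against controls (19 of 48) and CCND1 against dual knockdown (20 of 48). It is longer by less, on both sides, for CDK4 and CDK6 knockdown against controls, CDK6 against CDK4 knockdown and the departure from the sum. The same holds on the left only for dual knockdown against controls.

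Positions of the genes bear on how firmly their values can be read. In the GENCODE annotation of GRCh38, the build named in the submitters' processing notes, 24 of the 50 genes share exon bases with another annotated gene and 16 with a protein-coding one, and whether reads were counted by strand is not given in the sources used here. NPC1 shares 619 bases with RMC1 on the opposite strand, LIPA shares 65 with IFIT2 and 94 with IFIT3 on the opposite strand, and CLN3 and GLB1 share 2480 and 253 with another coding gene on their own strand. Named pseudogenes exist for 6 of the genes, with 18 for GUSB, 6 for CTSL, 2 for GM2A, and 1 each for IDS, LGMN and FUCA1. CTSS, CTSK and LAMP2 share no exon bases with another annotated gene.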

How the data were processed

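Poly(A) RNA of IMR90 cells was sequenced in 7 groups of 3 libraries, assigned to groups from the sample titles. The deposited table holds, per the file headers, gene identifiers and 1 column for each library, and no column of another series. Its unit is a signal, namely read counts that the authors divided by a size factor. The submitters' processing notes name Trimmomatic 0.38.1, HISAT2 2.2.1, featureCounts 2.0.3, DESeq2 2.11.40.8, FastQC 0.74 and MultiQC, and the build hg38 (GRCh38), with no role or order. The annotation and the strand setting are not given in the sources used here. All values were whole multiples of what 1 read is worth in their library (100% within 0.01 of a whole read), which gave the reads of each library.

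Genes that reached 10 in 3 or more libraries entered limma 3.58.1 (R 4.3.3) on log2(value + 1), with 7 group means over 21 libraries, trended variance and Benjamini-Hochberg adjustment over 11579 genes at 0.05. Fold changes are on that scale and understate the change of low genes. Other settings tried were a pseudocount of 0.1 or 10, testing without a filter or with a mean of at least 100, median centring, quantile normalization, the compared groups alone, each control alone, each library left out, and edgeR 4.0.16 and DESeq2 1.42.0 on the recovered reads. edgeR called 7984 genes between senescent controls and proliferating cells, 3617 after CCND1, 1934 after CDK4, 4922 after CDK6 and 5081 after dual knockdown. The test was checked on simulated counts. Columns carry library numbers but not the labels' replicate numbers, so libraries were named by column order within a group.

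The 50 genes, the other lists and the markers were chosen with earlier results of these data known. Given with a value in every library were GLB1, FUCA1, LAMP1, LAMP2, TFEB and TFE3. Genes with the highest and lowest fold change in senescence within each role were given in the proliferating and control libraries. The 3 highest and 3 lowest called genes in each knockdown were given in the libraries of that knockdown and the controls. From each other list the largest called rise and fall were named, except 1 result that is not reported here. Other genes were named after their values were seen. RefSeq promoters were matched by symbol.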

Additional observations from a re-analysis of the deposited data

Results flagged for a closer look

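For 5 of the 48 tested lysosomal genes the effect of CDK6 knockdown differed with and without CDK4 knockdown. The test was limma's interaction on the log2 scale over all genes. Among all 11579 tested genes 2.63% were called above the sum of the 2 single effects and 3.71% below it. None of the 5 calls held under all alternatives run. The dual knockdown lay above the sum of the 2 single effects for GALC (0.43), NPC2 (0.42) and ATP6V0D1 (0.27), and below it for SCARB2 (-0.28) and LAMP2 (-0.24). The lone effects of CDK4 and CDK6 knockdown were -0.31 and 0.09 for GALC, -0.10 and -0.26 for NPC2, -0.11 and -0.13 for ATP6V0D1, 0.16 and 0.36 for SCARB2, and 0.32 and 0.29 for LAMP2. Each effect is measured from the same 6 controls, and with NT3 or NT4 as the only control none of the 5 passed in both.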

How the results depend on the processing

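Of the calls given above, 37 of 46 in senescent controls against proliferating cells, 8 of 22 after CCND1, 4 of 10 after CDK4, 13 of 26 after CDK6 and 12 of 28 after dual knockdown were kept under every alternative run. With the compared groups fitted alone, which leaves fewer libraries for the spread, calls went from 22 to 6 for NT4 against NT3, to 13 for CCND1, to 5 for CDK4, to 15 for CDK6 and to 2 for the departure from the sum. With NT3 as the only control there were 17 calls for CDK4 and 13 for the departure, with NT4 there were 13 for CCND1 and 2 for the departure, and with no filter 3 for the departure, for which the cause was not tested. Leaving out 1 library gave 14 to 26 calls for CCND1, 5 to 14 for CDK4 and 2 to 8 for the departure. Signs turned for PPT1 with NT4 as the only control (0.050 after CCND1 and 0.11 after CDK6 knockdown), for ATP6V0D1 after CDK6 knockdown likewise (0.037), for SCARB2 after CDK4 knockdown with NT3 alone (-0.024) and for CTSH in senescence under quantile normalization (-0.013), cause not tested. Pseudocounts ended no call among the lysosomal genes. edgeR ended 5 and DESeq2 1 of 242 calls. Library numbers in the columns run through the 6 siRNA groups in 3 sets, and a replicate block by set, chosen after seeing the data, gave 23 calls for NT4 against NT3, 22 for CCND1, 9 for CDK4, 26 for CDK6, 28 for the dual knockdown, 6 for the departure, 19 for CDK6 against CDK4 and 22 for CCND1 against dual knockdown. The counts of kept calls leave this block out. Nothing in the labels says what the sets are, and deviations of libraries of 1 set correlated at -0.11 to 0.10 over 45 pairs (median 0.037), with 13 of 18 libraries closest to their own set, a hint only. FUCA1, TFEB, CTSS and CTSH (14 to 39 reads a library) rest on few reads in some libraries, which limits their precision.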
